A study of Mus musculus with 6 samples.

Results

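The large ribosomal subunit assembly factors are proteins that build the 60S subunit and are not part of the finished ribosome. They were taken from the deposited count table as the rows whose gene symbol equals one of 49 listed symbols, and all 49 were found among 55418 symbols. All 49 also passed the filter on low counts, which kept 15199 genes. The list was proposed with the difference between the groups of this same study in view. The differences of its members are therefore given as a description, and their p-values are not printed. Where members are counted as called at an adjusted p under 0.05, the counts are a description as well.

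In the nucleolus, RNA polymerase I makes a long precursor from which the RNAs of both subunits are cut. Assembly factors fold the large-subunit precursor, remove its internal spacer, modify its bases, bring in the 5S particle and then leave in a fixed order, driven by helicases, GTPases and large ATPases. The particle is exported to the cytoplasm, where the last factors are stripped off. In carcinoma cells this machinery is known to scale with growth, and its genes are known as targets of the transcription factor Myc.

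Polyadenylated RNA was sequenced from MOC2, an oral squamous carcinoma cell line of the mouse without papillomavirus. The 3 control libraries came from MOC2 cells labelled CRISPR control, and the other 3 from the H3 clone labelled EphA4 knockout, so the knockout group rests on a single clone. All cells were untreated, carried the same batch label, were thawed and passaged 2 times, and grew in medium with serum, EGF, hydrocortisone and insulin. Whether the 3 libraries of a group are separate cultures is not stated, so a p-value here is set against the spread of these libraries alone, and that spread may be technical.

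The libraries labelled EphA4 knockout held more Epha4 transcript than the control libraries. Epha4, the targeted ephrin receptor, had 51.4, 59.8 and 54.0 CPM (counts scaled to library size with TMM factors) in control and 97.4, 103 and 98.1 CPM in the knockout-labelled libraries, with groups that did not overlap. The log2 fold change was 0.86 with an SE of 0.06 (edgeR, adjusted p = 2.1e-06). Gene-level counts cannot tell an edited transcript from an intact one. Every direction below is therefore that of the knockout-labelled libraries relative to control.

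Library totals ran from 35115926 to 41775031 counts. The knockout-labelled replicate 3 stood apart from its group, with a chi-square per degree of freedom of 34.1 and 35.1 against the other two, while pairs without it within a group had 4.63 to 9.54. Markers of all 3 cell classes differed between the groups. The 9 epithelial markers summed to 3897 to 3945 CPM in control and 4117 to 4163 CPM in the knockout-labelled libraries, and the 7 tested all passed in edgeR, in both directions. Krt8, Krt18, Cdh1 and Sfn were higher (log2 fold changes 0.29, 0.19, 0.14 and 0.93), and Epcam, Krt14 and Krt17 were lower (-0.61, -1.03 and -1.45). The basal squamous markers Krt5 and Trp63 had at most 0.048 and 0.054 CPM. The 10 fibroblast markers summed to 48.6 to 51.6 CPM in control and 1.96 to 2.07 CPM in the knockout-labelled libraries, the 5 tested were all lower, and Lum had no count anywhere. The 8 leukocyte markers summed to 22.1 to 24.8 and 11.8 to 13.4 CPM, and the 2 tested went opposite ways. Cd68 was lower (18.2 against 4.24 CPM on average) and Csf1r was higher (4.72 against 7.75 CPM), while Cd3e, Itgam and Adgre1 had no count. The part of these differences in the results below was not tested. In bulk RNA, fewer cells of a type and less RNA per cell cannot be told apart, and every level is relative to the other RNA of its library.

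Nearly all assembly factor transcripts were higher in the knockout-labelled libraries. The 49 genes together made up 0.413%, 0.416% and 0.426% of all counts in the control libraries and 0.706%, 0.703% and 0.704% in the knockout-labelled ones, with no overlap. In edgeR at an adjusted p under 0.05, 46 members were higher, 2 were lower and 1 did not pass. Of all tested genes 71.5% passed, 32.7% as higher and 38.8% as lower. The groups did not overlap for 48 members, 46 of them higher, against 76.1% of all tested genes, 34.6% higher and 41.4% lower. The median log2 fold change was 0.78 over the members and -0.04 over all tested genes. The middle of the list was narrow, with quartiles of 0.65 and 1.05, against -0.78 and 0.55 for all tested genes. At least a doubling (log2 fold change of 1 or more with an adjusted p under 0.05) was reached by 14 members, where 10.3% of all tested genes reached it. No member was lower by that much, as 20.1% of all tested genes were. Since the list was chosen on this contrast, the counts describe it and support nothing further. Without knockout-labelled replicate 3 the counts were again 46 higher and 2 lower, with a median log2 fold change of 0.84.

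**Figure D1:**
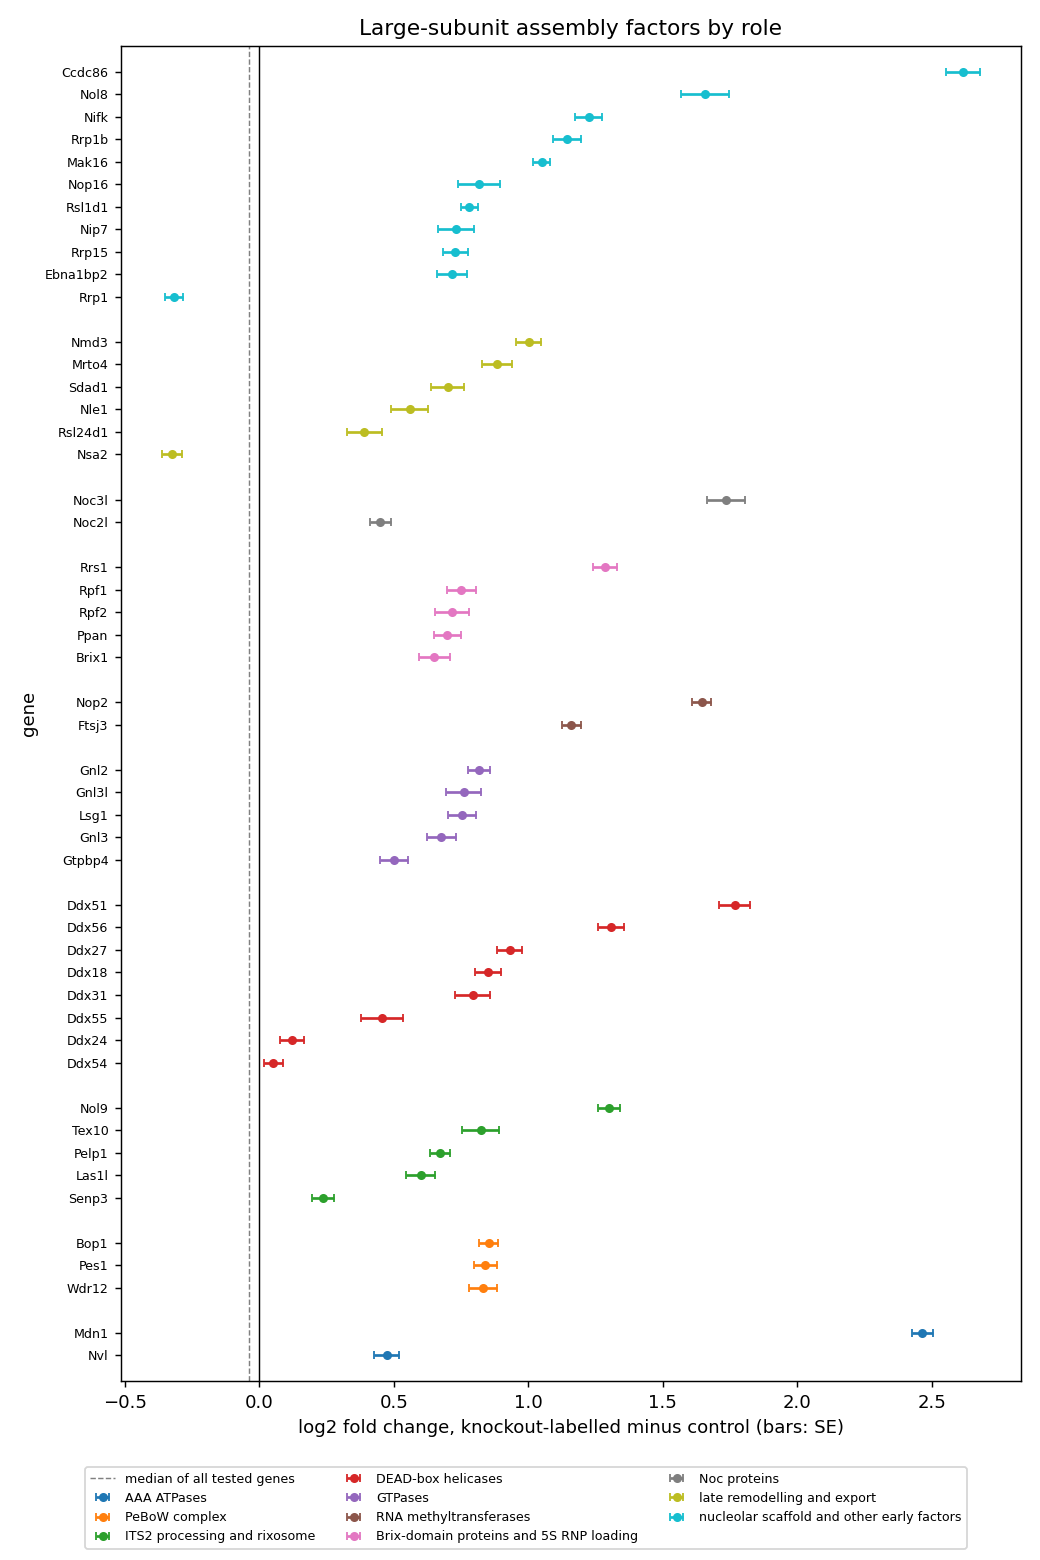
Log2 fold change of each of the 49 assembly factors (knockout-labelled minus control, x axis; bars are the SE of the fit), grouped by role on the y axis. All points but Rrp1 and Nsa2 lie right of 0, Ccdc86 and Mdn1 lie farthest right, and the dashed line marks the median of all tested genes at -0.04.

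Promoters are shown as a description. The members were chosen on this contrast, so their moving largely together is no sign of a shared regulator, and none was tested. RefSeq promoters (GRCm38.p6, from 250 bases before to 50 after the transcription start) were matched by symbol for 43 members. The E-box CACGTG, bound by Myc and its partner Max among other factors, reads the same on both strands. It lay in 23.3% of these members (10 of 43), in 11.5% of the 10401 tested genes with a promoter entry and in 7.15% of all 32851 promoter entries. In the other 60S factors, a list of similar function described further on, it lay in 8.70% (2 of 23), below the share of tested genes. The ETS-type motif CCGGAAGT, searched on both strands, lay in 25.6% (11 of 43), 9.11% and 3.89%, and in 21.7% of the other 60S factors (5 of 23). Both motifs were found in 2 members, Tex10 and Rpf2. The NF-Y motif CCAAT lay in 25.6% of members, 43.3% of tested genes, 37.4% of all promoters, and in 3 of the 23 other 60S factors. The YY1 consensus lay in 1 member, Pelp1, or 2.33%, against 1.79% of tested genes, 0.633% of all promoters and 4.35% of the other 60S factors (1 of 23). The NRF1 consensus lay in none of the 43 and none of the 23, against 2.26% and 0.971%. All were searched on both strands, no motif contains another, and a match describes letters, not binding. The members with the highest fold changes among those with an E-box are printed below as 30-base windows on the gene's strand, 5′ to 3′, with the E-box in capitals.
Ccdc86: ctacagaggctaCACGTGagccatggatac
Mdn1: caacgtgaattccttcacCACGTGtgtgtc
Nop2: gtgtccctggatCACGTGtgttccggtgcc
Nmd3: cgccccttgctaCACGTGtattctttgacc
Pes1: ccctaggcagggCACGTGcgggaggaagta

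These windows lie at chr19:10949226-10949255 (minus strand), chr4:32657139-32657168 (plus), chr6:125131811-125131840 (plus), chr3:69721929-69721958 (plus) and chr11:3963965-3963994 (plus). Counting the first transcribed base as 1 and the base before it as -1, the E-box began at 24 in Ccdc86, 39 in Mdn1, -60 in Nop2, -114 in Nmd3 and 3 in Pes1. The other members with an E-box were Tex10, Rpf2, Sdad1, Pelp1 and Nle1. Members with an E-box had a median log2 fold change of 0.83 (n = 10, from 0.56 to 2.62) and those without it 0.73 (n = 33, from -0.32 to 1.77), so the ranges overlapped widely. The 3 members with the highest fold changes among those with an ETS motif are shown for comparison, with the motif, or its reverse complement ACTTCCGG, in capitals.
Ddx27: actcgctacgtCCGGAAGTggctgcttctt
Tex10: ggagggcccccACTTCCGGgcggcggaagg
Lsg1: gctcttacatcACTTCCGGgttcacagccg

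These 3 windows lie at chr2:167015300-167015329 (plus), chr4:48473420-48473449 (minus) and chr16:30587592-30587621 (minus), with the motif starting at -2, 26 and -21. The 11 members with this motif had a median log2 fold change of 0.72 and did not exceed 0.93 (Ddx27), while the 32 without it had a median of 0.82. Myc itself had 286 ± 6.01 CPM in control and 295 ± 11.5 CPM in the knockout-labelled libraries (SD, n = 3 each), and its log2 fold change of 0.04 (SE 0.04) did not pass in edgeR (adjusted p = 0.34). Mycn had at most 0.432 CPM in any library and was not tested.

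The AAA ATPases are the motors that pull factors off the particle, and they differed widely. Mdn1, also called midasin, strips Wdr12 and later Nle1 from the precursor. Mdn1 had 43.8, 45.9 and 45.4 CPM in control and 241, 252 and 253 CPM in the knockout-labelled libraries. Both groups were tight and far apart, a 5.52-fold difference (log2 fold change 2.46, SE 0.04). Nvl, which releases factors at an earlier step, had 63.1, 65.4 and 60.3 against 84.6, 88.8 and 88.8 CPM, a log2 fold change of 0.47 (SE 0.05). The adaptors that Mdn1 acts on were higher by far less than Mdn1, with log2 fold changes of 0.83 (SE 0.05) for Wdr12 and 0.56 (SE 0.07) for Nle1.

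The PeBoW complex, in which Pes1, Bop1 and Wdr12 bind one another and are needed to process the spacer between the 5.8S and 28S RNAs, was the most even group. Pes1 had 160, 159 and 172 CPM in control and 301, 294 and 284 CPM in the knockout-labelled libraries. The lowest knockout-labelled value thus lay well above the highest control value. The log2 fold changes were 0.84 for Pes1 (SE 0.04), 0.85 for Bop1 (SE 0.03) and 0.83 for Wdr12 (SE 0.05), closer to each other than 1 SE. Their transcript levels in control differed, by an amount that depended on the exonic length used. Mean levels were 163 CPM for Pes1, 81.1 CPM for Bop1 and 42.5 CPM for Wdr12. Per kb of exon, control libraries had 54.1 ± 2.34 CPM of Pes1, 27.4 ± 0.413 CPM of Bop1 and 3.56 ± 0.192 CPM of Wdr12 (SD, n = 3). All annotated exons span 3024 bases in Pes1, 2957 in Bop1 and 11955 in Wdr12. If long exons of Wdr12 are rarely used, its level per kb comes out too low.

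The enzymes and scaffold that cut and trim the internal transcribed spacer were less even. Nol9, the kinase that works with the endonuclease Las1l, had 48.2, 48.9 and 49.8 CPM in control and 124, 120 and 117 CPM in the knockout-labelled libraries, a log2 fold change of 1.30 (SE 0.04). Las1l itself was higher by a log2 fold change of 0.60 (SE 0.05). The scaffold proteins Pelp1 and Tex10 had 0.67 (SE 0.04) and 0.82 (SE 0.07). Senp3, the SUMO protease that acts on Pelp1 and was the most abundant of the 5 per kb in control, had 119, 117 and 127 CPM against 142, 146 and 141 CPM. Its groups did not overlap, but its log2 fold change of 0.24 (SE 0.04) was the smallest of these genes.

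The DEAD-box helicases, which use ATP to rearrange RNA in the precursor, spread from no detectable difference to more than a tripling. Ddx51, which is known for releasing a small nucleolar RNA from the precursor of 28S, had 14.8, 15.5 and 15.2 CPM in control and 53.1, 51.6 and 50.2 CPM in the knockout-labelled libraries, a 3.40-fold difference. It was the least abundant of the 8 in control per kb. Ddx56 had 59.0, 53.4 and 57.9 against 144, 137 and 141 CPM (log2 fold change 1.31, SE 0.05). Ddx27, Ddx18 and Ddx31 had log2 fold changes of 0.93, 0.85 and 0.79, and Ddx55 had 0.46. Ddx54, the most abundant of the 8 per kb, had 240, 228 and 234 CPM in control and 240, 237 and 251 CPM in the knockout-labelled libraries. It was the member whose groups overlapped, and its log2 fold change of 0.05 (SE 0.04) had the opposite sign, -0.0146, with no filter on low counts. Ddx24 lay nearest to it, at 0.12 (SE 0.04). The Ddx24 call did not hold under 7 of 15 alternative settings, upper-quartile scaling and library totals among them.

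The 5 GTPases, which act as checkpoints of nucleolar release and of the final cytoplasmic steps, were all higher. Their log2 fold changes ran from 0.50 (Gtpbp4, SE 0.05) to 0.82 (Gnl2, SE 0.04). Gnl2, which works on the nuclear particle before export, had 91.1, 86.8 and 92.6 CPM in control and 153, 160 and 164 CPM in the knockout-labelled libraries, a 1.76-fold difference. Gnl3l, Lsg1, Gnl3 and Gtpbp4 had log2 fold changes of 0.76, 0.75, 0.68 and 0.50, with SEs of 0.05 to 0.07. Lsg1 is the cytoplasmic GTPase that releases the export adaptor Nmd3, and Nmd3 had a log2 fold change of 1.00 (SE 0.05).

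Both RNA methyltransferases more than doubled. Nop2, which methylates a cytosine of 28S RNA, had 113, 112 and 113 CPM in control and 360, 339 and 356 CPM in the knockout-labelled libraries, 3.12-fold higher (log2 fold change 1.64, SE 0.04). Ftsj3, which methylates ribose in the precursor, had 154, 155 and 160 CPM against 340, 351 and 357 CPM, 2.23-fold higher. In neither gene did a library fall near the other group.

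Of the Brix-domain proteins and the factor that joins them in loading the 5S particle, Rrs1 stood above the rest. Rrs1, the partner of Rpf2 in bringing 5S RNA with its bound proteins to the precursor, had 56.5, 61.8 and 61.0 CPM in control and 146, 148 and 143 CPM in the knockout-labelled libraries (log2 fold change 1.28, SE 0.04). The 4 Brix-domain genes lay within a small range, with log2 fold changes of 0.65 for Brix1, 0.70 for Ppan, 0.72 for Rpf2 and 0.75 for Rpf1 and SEs of 0.05 to 0.06. Rpf2 and Rrs1, known as a heterodimer, thus did not differ from control by the same amount.

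The Noc proteins, which travel with the precursor in pairs, also differed. Noc3l had 35.5, 43.2 and 37.6 CPM in control and 127, 126 and 134 CPM in the knockout-labelled libraries, 3.33-fold higher. Noc2l had 273, 275 and 287 CPM against 370, 376 and 394 CPM, a log2 fold change of 0.45 (SE 0.04) next to 1.74 (SE 0.07) for Noc3l. Noc2l had the highest level per kb of all members in control, at 97.0 ± 2.75 CPM, and Noc3l had 9.75 ± 0.996 CPM (SD, n = 3). In the knockout-labelled libraries these were 133 ± 4.40 and 32.5 ± 1.04 CPM per kb.

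Factors of late remodelling and export held one of the exceptions. Nsa2, a small protein needed to finish the spacer processing, was lower, with 185, 197 and 200 CPM in control and 154, 156 and 154 CPM in the knockout-labelled libraries. Its groups did not overlap, and its log2 fold change was -0.32 (SE 0.04). Mrto4, a placeholder for the stalk protein P0, had a log2 fold change of 0.88 (SE 0.06), and Sdad1 had 0.70. Rsl24d1, which holds the place of a ribosomal protein until the cytoplasm, had 0.39 (SE 0.07).

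The remaining 11 nucleolar factors included both the highest fold change and the other exception. Ccdc86, a coiled-coil nucleolar protein, had 21.1, 22.5 and 19.2 CPM in control and 130, 125 and 129 CPM in the knockout-labelled libraries. This 6.13-fold difference (log2 fold change 2.62, SE 0.06) exceeded that of Mdn1. Nol8 had 21.3, 27.8 and 25.3 CPM against 77.5, 78.1 and 79.3 CPM, and was the member with the widest control spread in log2 terms among those printed here in full. Nifk, which binds the proliferation marker Ki-67, had 38.0, 39.7 and 38.6 CPM against 93.1, 92.9 and 85.7 CPM.

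Rrp1 and Rrp1b, paralogs that share a domain, went in opposite directions. Rrp1 had 292, 282 and 287 CPM in control and 236, 226 and 230 CPM in the knockout-labelled libraries, a log2 fold change of -0.32 (SE 0.03). Rrp1b had 54.9, 50.2 and 55.0 CPM against 119, 122 and 113 CPM, a log2 fold change of 1.14 (SE 0.05). Per kb, Rrp1 stood at 86.0 ± 1.53 and 69.1 ± 1.51 CPM and Rrp1b at 6.93 ± 0.352 and 15.3 ± 0.576 CPM (SD, n = 3 each), so Rrp1 stayed the more abundant. The other 6 genes of this class, Mak16, Nop16, Rsl1d1, Nip7, Rrp15 and Ebna1bp2, had log2 fold changes from 0.72 (Ebna1bp2) to 1.05 (Mak16).

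**Figure D2:**
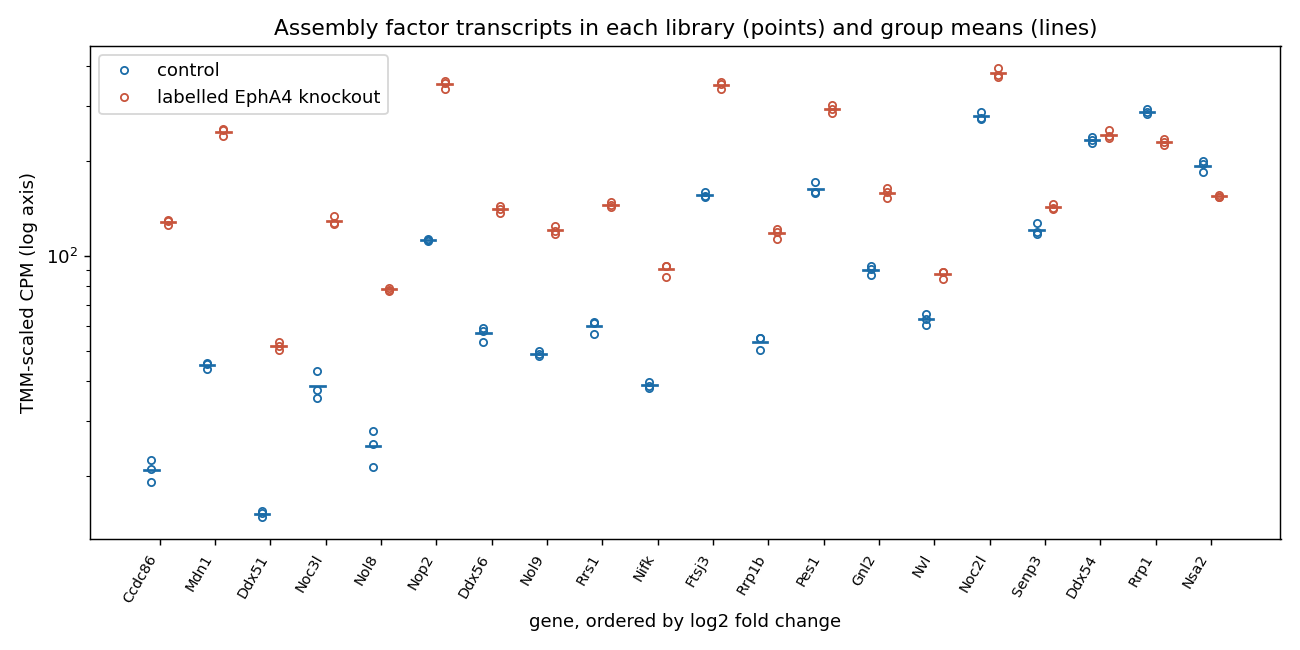
TMM-scaled CPM (log axis) of the 20 assembly factors given in full, with each library as a point and the mean of the 3 libraries as a line, ordered by log2 fold change. The knockout-labelled points lie above the control points up to Senp3, overlap them at Ddx54 and lie below them at Rrp1 and Nsa2.

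In transcript level per exonic length the members covered a wide range. Control means ran from 97.0 CPM per kb for Noc2l to 2.06 CPM per kb for Mdn1, a 47.1-fold range, with a median of 19.1 against 4.57 for all tested genes with 1 locus. After Noc2l the order in control was Rrp1 (86.0), Rsl1d1 (79.6), Mak16 (57.3), Pes1 (54.1), Nsa2 (45.3) and Nop2 (40.6). Among these, the libraries of Mak16 and Pes1 overlapped, at 56.3 to 58.4 and 52.5 to 56.8, while the other neighbours did not. In the knockout-labelled libraries the highest means were those of Rsl1d1 (137 ± 1.39), Noc2l (133 ± 4.40) and Nop2 (127 ± 4.07, SD, n = 3 each), and the range was 23.0-fold. The libraries of Noc2l overlapped those of Rsl1d1 and those of Nop2, so the order of these genes is not settled there. The lowest 5 in control were Mdn1, Nol8 (2.74), Ddx51 (2.89), Wdr12 (3.56) and Ccdc86 (3.62), so that Mdn1, Nol8, Ddx51 and Ccdc86 had both low levels and some of the highest fold changes, while Wdr12 did not. In control the libraries of Nol8 and Ddx51 overlapped, at 2.36 to 3.07 and 2.82 to 2.95, as did those of Wdr12 and Ccdc86, at 3.34 to 3.68 and 3.32 to 3.89. These levels use all annotated exons of a gene, so genes with long rarely used exons come out too low.

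**Figure D3:**
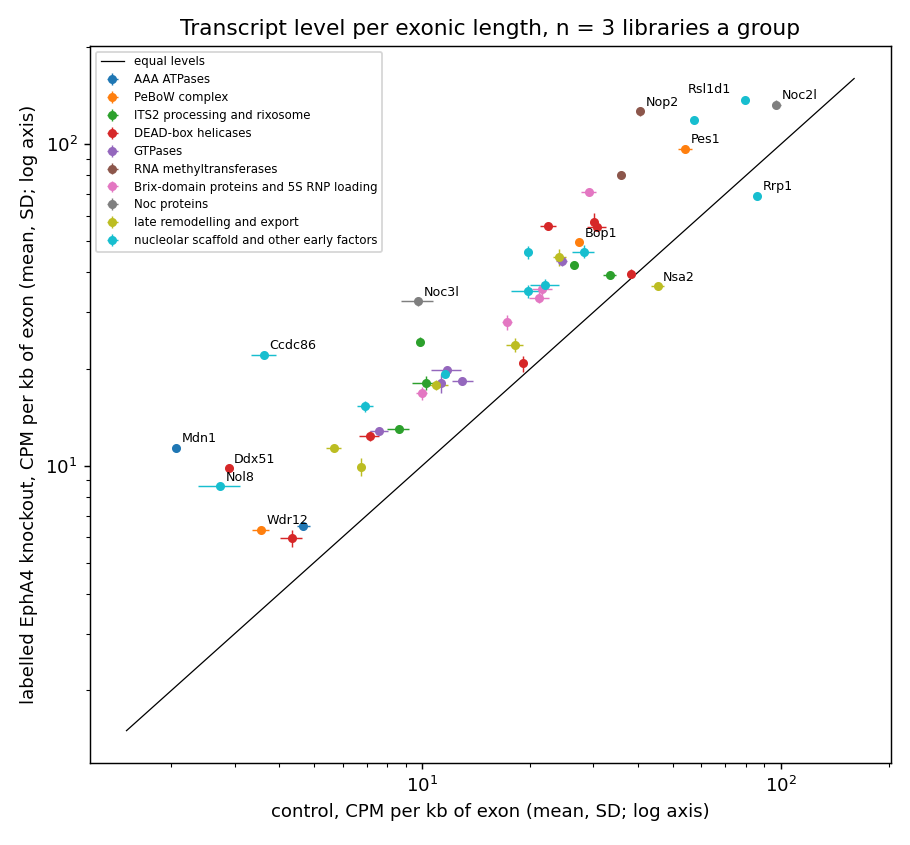
Level per kb of exon in control (x axis) and knockout-labelled libraries (y axis) for the 49 assembly factors, both on log axes, as means of 3 libraries with the SD, coloured by role. Points above the diagonal are higher in the knockout-labelled libraries, and Rrp1 and Nsa2 are the 2 below it.

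The replicates of a group were close to each other for these genes. The median coefficient of variation was 4.33% in control and 3.00% in the knockout-labelled libraries, and the members had from 547 to 14493 counts in a library. They lie on 18 chromosomes, with at most 7 on one (chromosome 4). Exons of another gene model cover over 10% of the exonic length of 6 members, which are Mak16 (39.4%), Nsa2 (37.2%), Noc2l (20.9%), Ccdc86 (17.9%), Ddx54 (15.5%) and Rsl24d1 (13.2%). In Rsl24d1 the other model lies on the same strand, so strand could not separate the shared reads. In the rest it lies on the opposite strand, and the strand setting of the counting is not stated. Which model the shared reads came from is therefore uncertain.

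Near-identical copies found by the search used here could share reads with 7 members: Pes1, Senp3, Ddx18, Rpf2, Mrto4, Rsl24d1 and Nsa2. Their copies had at most 2.87% of the member's own count in any of the other 5 libraries and up to 12.5% (Nsa2) in knockout-labelled replicate 3. For Nsa2 the copies held 128 and 113 counts in the other two knockout-labelled libraries and 709 in that one. Nsa2 had 154, 156 and 154 CPM in these 3 libraries, so its own level there was not set apart.

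Other 60S factors that are not members of the list, 30 genes listed by function, moved largely the same way. In edgeR, with adjustment over all tested genes, 25 rose, 3 fell and 2 passed in neither direction. Of all tested genes 32.7% passed as higher and 38.8% as lower. Their median log2 fold change was 0.63. These too were listed with earlier results of these data known. Their counts and p-values are therefore a description as well, and no independent support for the members. Heatr3, a carrier of ribosomal proteins of the 5S particle, rose most, from 29.3 ± 3.01 to 133 ± 3.81 CPM (SD, n = 3 each; log2 fold change 2.18, adjusted p = 2.6e-08). Grwd1, a chaperone of the protein Rpl3, rose by 2.06 (adjusted p = 9.7e-08). Urb1 and Urb2, large nucleolar scaffold proteins, rose by 1.97 and 1.39. Spata5, the ATPase that starts maturation in the cytoplasm, rose by 1.90 (adjusted p = 2.2e-08), and the helicase gene Ddx21 rose by 1.69 from 204 ± 7.10 to 657 ± 12.3 CPM.

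The 3 that fell were Nop53, which recruits RNA-trimming enzymes, Sbds, which helps release Eif6 in the cytoplasm, and the export factor Nxt1. Nop53 fell from 196 ± 9.65 to 142 ± 2.75 CPM (SD, n = 3 each; log2 fold change -0.47, edgeR adjusted p = 1e-05). Sbds fell from 138 ± 2.20 to 111 ± 4.53 CPM (log2 fold change -0.32, edgeR adjusted p = 8.2e-05), and Nxt1 had a log2 fold change of -0.23 (edgeR adjusted p = 0.0097). Efl1, the GTPase partner of Sbds, and Zfp622 passed in neither direction, at -0.07 and 0.02. Cebpz, the Noc1 partner of Noc2l, rose from 80.4 ± 4.27 to 199 ± 3.27 CPM.

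Transcripts of the proteins that these factors assemble went the other way. Of 47 genes of large-subunit ribosomal proteins, 46 fell in edgeR, with a median log2 fold change of -0.52. Of all tested genes 38.8% passed as lower. Near-identical copies of these 47 genes were not searched, so the part of reads shared with copies was not tested. Without knockout-labelled replicate 3, 45 fell and the median was -0.41. Rpl17 fell most, from 1142 ± 61.0 to 513 ± 80.4 CPM (SD, n = 3 each; log2 fold change -1.16, edgeR adjusted p = 1e-05). The exception was Rpl24, which had 21, 2 and 14 counts in control, 9 and 14 in knockout-labelled replicates 1 and 2 and 131 in replicate 3, far below the others, and did not pass.

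**Figure D4:**
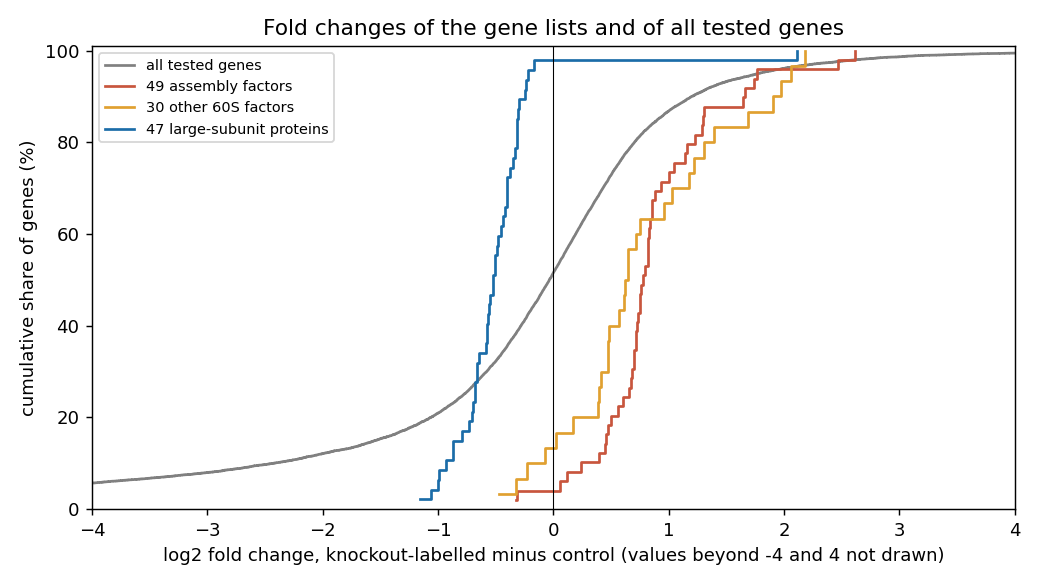
Cumulative share of genes (y axis, %) by log2 fold change, knockout-labelled minus control (x axis), for the 49 assembly factors, 30 other 60S factors, 47 large-subunit proteins and all tested genes. The curves of the assembly factors and other 60S factors lie right of that of all tested genes in their middle (medians 0.78 and 0.63 against -0.04), and the curve of the ribosomal proteins rises left of 0 (median -0.52).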

How the data were processed

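The deposited values are raw counts, in 1 table by gene symbol for the 6 libraries, not normalized by the authors. STAR and GRCm39 are named in the submitters' processing notes. Counting tool, strand setting and annotation were not given in the sources used here. Here, filterByExpr kept 15199 of the 28042 symbols with any count, TMM factors scaled them, and edgeR 4.0.16 in R 4.3.3 fitted the groups by quasi-likelihood (glmQLFit, glmQLFTest, two-sided, no covariate). Adjusted p-values (Benjamini-Hochberg, all tested genes) under 0.05 passed. An SE is the size of a log2 fold change over the root of its F statistic. One count equals 0.0240 to 0.0283 CPM.

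The members and gene lists were chosen with earlier results of these data known. Values in every library were given for the 12 members with the largest absolute change, every member with a log2 fold change below 0 and the most abundant member per kb of each role. Of the other 60S factors, the 6 largest calls and every call against the majority were named, and of the ribosomal proteins the largest rise and fall. Cebpz, Efl1 and Zfp622 were added after their values were seen.

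Exonic lengths, chromosomes and overlaps come from GENCODE M21, an earlier assembly than GRCm39, so no gene coordinates are printed. Copies were searched for the members only, with blastn 2.17.0 (95% identity, at least 150 bases and 25% of the longest coding transcript). Promoters come from RefSeq (GRCm38.p6). The fit was also run on simulated counts with a small share of genes changed, equally in both directions. In the data 71.5% of tested genes passed, so the simulation does not test the scaling under so broad a difference. As alternatives, scaling, filter and tool (limma-voom 3.58.1, DESeq2 1.42.0) were changed, the replicate number was added as a block, and the 20 highest genes or single replicates were removed.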

Additional observations from a re-analysis of the deposited data

How the results depend on the processing

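Over 15 alternatives, 725 of 735 member values kept their direction and their side of the threshold. The exceptions were Ddx24, whose call was lost in 7, and Ddx54, which passed as higher without control replicate 1 and with the 20 highest genes left out, and was -0.0146 with no filter. The count of members called higher was 45 to 47 under every alternative and that of members called lower was 2. The members' median log2 fold change was 0.71 with no filter, which moved the median of all tested genes from -0.04 to -0.10, and 0.80 to 0.84 with single replicates left out. No large-subunit protein was called higher in edgeR (0 at an unadjusted p under 0.05 as well, and 0 in limma-voom), while 1 was in DESeq2 and 0 to 1 with single replicates left out. The count of these proteins called lower was 42 with the 20 highest genes left out, 44 with relative log expression factors, 43 to 46 with single replicates left out and 46 under the other alternatives. A gene among the 20 left out was not tested in that fit and could not be called. Their median was -0.59 with no filter and between -0.53 and -0.41 with single replicates left out. Same-numbered libraries had correlations of deviations of -0.0029, 0.029 and 0.0083, all near 0, and 2 of the 3 controls correlated best with their own number. With 3 libraries a group, these values cannot settle whether equal numbers were handled as pairs. With a replicate block 45 members were called higher and 10339 genes in all, against 10867 without it. Each member had at least 547 counts in every library.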
